A study of Mus musculus with 42 samples.

Results

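The sterol and fatty acid synthesis genes that the transcription factors SREBP1 and SREBP2 (sterol regulatory element-binding proteins) are known to activate were followed in mouse kidneys that lacked Tsc2, Tfeb or both. The group comprised 31 genes, chosen by name, of the 54532 genes in the deposited tables, and all 31 were found. By role, 7 belong to the mevalonate pathway (Acat2, Hmgcs1, Mvk, Pmvk, Mvd, Idi1 and Fdps) and 11 to the pathway from squalene to cholesterol (Fdft1, Sqle, Lss, Cyp51, Tm7sf2, Msmo1, Nsdhl, Hsd17b7, Ebp, Sc5d and Dhcr7). Of the others, 5 belong to the SREBP machinery (Srebf1, Srebf2, Scap, Insig1 and Insig2), 1 to sterol transport (Stard4) and 7 to fatty acid synthesis (Acly, Acaca, Fasn, Elovl6, Scd1, Scd2 and Me1).

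Whole-kidney RNA of 42 libraries was sequenced, 3 in each of 14 groups of C57BL/6 mice. In the CaggCreERT2 cohort, a Cre recombinase made in the whole body and switched on by tamoxifen given to the nursing mothers after birth removed floxed Tsc2 (Tsc2 KO), floxed Tfeb (Tfeb KO) or both (double knockout, DKO), and the kidneys were taken at postnatal day 30 (P30). The controls of this cohort were exposed to tamoxifen as well. For RNA sequencing the study's text gives these controls as Cre-positive without floxed Tsc2, and the labels call them wild type. The controls in the study's gross images were Cre-negative. In the KspCre cohort, Cre under the cadherin 16 promoter, which acts in the tubular epithelium, removed the same genes, the controls were Cre-negative, and the kidneys were taken at P50. A second KspCre cohort (the drug cohort below) of control, Tsc2 KO and DKO mice at P50 had received vehicle or rapamycin, an inhibitor of mTORC1, at 1 mg/kg in 11 intraperitoneal injections from day 25. Tsc2 encodes a subunit of the complex that restrains mTORC1, and Tfeb encodes a transcription factor of lysosomal genes.

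As background, SREBPs are made as precursors in the membrane of the endoplasmic reticulum. When sterol is scarce, the escort protein SCAP carries them to the Golgi, where proteases free the active fragment. When sterol is plentiful, INSIG proteins hold SCAP in the endoplasmic reticulum. SREBP2 is known mainly for the cholesterol genes and SREBP1 for the fatty acid genes, and mTORC1 signalling is known to raise SREBP activity. The mevalonate pathway builds isoprenoid units from acetyl-CoA, which are joined into squalene, closed into lanosterol and trimmed to cholesterol, while the fatty acid arm builds, elongates and desaturates palmitate.

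Reads counted on genes came to 16047699 to 20865587 per library in the CaggCreERT2 cohort, 14926050 to 20541625 in the KspCre cohort and 15104557 to 22807605 in the drug cohort. Levels are given as FPKM, fragments scaled to gene length and library size, in the order of the replicate numbers, and differences as log2 fold changes of the counts with their standard errors (SE). The targeted gene Tsc2 lay between 8.18 and 10.6 FPKM in the controls of all cohorts and between 3.54 and 6.50 in every Tsc2 KO and DKO kidney. On vehicle, Tsc2 was higher in DKO than in Tsc2 KO kidneys by 0.58 (adjusted p = 0.000843, edgeR test described below). Rapamycin raised it in Tsc2 KO kidneys by 0.49 (adjusted p = 0.00199). This rapamycin effect differed from that in control by 0.62 (adjusted p = 0.00728). The effect in DKO differed from that in Tsc2 KO by -0.54 (adjusted p = 0.0357). The part of the remaining Tsc2 in later results was not tested. Tfeb lay between 3.89 and 8.02 FPKM in the controls, between 1.99 and 4.09 in DKO kidneys, between 2.73 and 3.73 in CaggCreERT2 Tfeb KO and between 4.32 and 5.25 in KspCre Tfeb KO kidneys. Both Tfeb KO groups lay below all controls of their cohort. In the KspCre cohort Tfeb was 3.96, 6.12 and 3.66 FPKM in Tsc2 KO and 4.09, 3.08 and 2.65 in DKO kidneys, with overlap. In the other cohorts Tsc2 KO and DKO kidneys did not overlap. Judged by Xist and Y-linked genes, the sexes differed between groups in the CaggCreERT2 cohort, with 3 male controls, 2 female and 1 male Tsc2 KO, 3 female Tfeb KO, and 1 female and 2 male DKO kidneys, while all KspCre kidneys were female. Markers of other tissues moved between libraries. The summed level of 8 adipocyte markers ranged from 0.294 to 832 FPKM, and the sum of 8 adrenal cortex markers, below 3 FPKM in 36 libraries, was 1440 FPKM in Tsc2 KO vehicle 1 and 4360 FPKM in DKO vehicle 2. KspCre DKO 1 stood apart, with a macrophage marker sum of 734 FPKM (at most 198 in the other 41 libraries), a T cell marker sum of 17.5 FPKM (at most 1.87) and a proximal tubule sum of 631 FPKM. The sum of 7 proximal tubule markers was 1600 to 2040 FPKM in untreated and vehicle-treated controls and 386 to 1380 FPKM in the Tsc2 KO kidneys without rapamycin. In whole-kidney RNA, fewer cells of a type and less RNA per cell cannot be told apart. The labels do not say that the libraries of a group came from separate mice, so the p-values measure the spread between these libraries. For 4 CaggCreERT2 libraries the name in the FPKM table, which was used, is not the one in the count table. With the names of the count table, 9 of the 31 genes were called in CaggCreERT2 Tsc2 KO relative to control (18 with the FPKM names), 4 in DKO relative to Tsc2 KO (8) and 0 in DKO relative to control (9).

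Sequence upstream of the start site was available for 25 of the 31 genes in RefSeq (mouse build GRCm38.p6), as 34 windows from 250 bases before to 50 bases after a start site, each on the strand of its gene. Sqle, Fdft1, Fdps, Stard4, Scd1 and Scd2 had no entry. Searched on both strands, the letters TCACNCCAC of the classical sterol regulatory element occurred in the windows of 1 gene (Hmgcs1), against 1.24% of all 32851 windows and 2.94% of the 34. CACGTG, an E-box that both SREBPs and the TFEB family are known to bind, occurred in 5 genes (Dhcr7, Hsd17b7, Insig1, Sc5d and Scap) and 17.6% of the 34 windows, against 7.15% of all windows. CCAAT, the letters of the SREBP partner NF-Y, occurred in 21 genes and 64.7% of the windows, against 37.4% of all windows, and GGGCGG, the letters of Sp1, in 21 genes and 73.5%, against 35.7%. A match describes letters in a window and is not a shown binding site. Bases upstream of the start site are printed for 5 genes: Hmgcs1 with the sterol element, Insig1, Hsd17b7 and Sc5d with an E-box, and Ebp with neither. The printed part is 250 bases, except that it ends where the gene starts in the deposited tables for Insig1 (201 bases) and Hsd17b7 (214 bases), which leaves out 1 of the 3 CCAAT matches of Hsd17b7. Capitals mark the sterol element, the E-box and CCAAT, which shows as ATTGG where it lies on the other strand. Hmgcs1 is chr13:119690101-119690350 (plus strand), Insig1 chr5:28071162-28071362 (plus), Hsd17b7 chr1:169969242-169969455 (minus), Sc5d chr9:42264301-42264550 (minus) and Ebp chrX:8193513-8193762 (minus strand).
Hmgcs1: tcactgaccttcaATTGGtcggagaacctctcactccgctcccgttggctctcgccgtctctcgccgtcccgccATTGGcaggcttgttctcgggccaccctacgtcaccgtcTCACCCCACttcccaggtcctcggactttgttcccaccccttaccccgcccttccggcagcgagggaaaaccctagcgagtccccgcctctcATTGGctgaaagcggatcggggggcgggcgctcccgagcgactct
Insig1: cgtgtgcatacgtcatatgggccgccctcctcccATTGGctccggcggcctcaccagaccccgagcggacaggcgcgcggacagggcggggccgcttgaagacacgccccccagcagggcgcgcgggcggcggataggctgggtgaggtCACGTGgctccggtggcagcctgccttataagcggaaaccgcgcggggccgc
Hsd17b7: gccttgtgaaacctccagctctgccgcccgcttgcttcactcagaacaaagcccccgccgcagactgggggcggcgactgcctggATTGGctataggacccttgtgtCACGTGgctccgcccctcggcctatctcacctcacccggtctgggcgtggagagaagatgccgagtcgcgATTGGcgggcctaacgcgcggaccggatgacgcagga
Sc5d: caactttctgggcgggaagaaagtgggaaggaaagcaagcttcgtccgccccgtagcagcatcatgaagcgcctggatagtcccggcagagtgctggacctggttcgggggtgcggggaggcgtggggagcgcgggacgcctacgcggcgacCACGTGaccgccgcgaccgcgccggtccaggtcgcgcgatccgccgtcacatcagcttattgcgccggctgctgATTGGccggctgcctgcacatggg
Ebp: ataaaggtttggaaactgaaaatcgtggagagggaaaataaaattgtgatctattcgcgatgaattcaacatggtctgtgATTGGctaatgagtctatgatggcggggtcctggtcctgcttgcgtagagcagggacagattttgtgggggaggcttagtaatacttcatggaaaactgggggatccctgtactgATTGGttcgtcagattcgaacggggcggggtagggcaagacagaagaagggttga

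The first question was how these genes changed on loss of Tsc2. A gene was called where its adjusted p (from the quasi-likelihood test of edgeR, with the Benjamini-Hochberg procedure over all genes) did not exceed 0.05 and its mean was at least 5 FPKM in at least 1 of the groups compared. All 31 genes were tested in each comparison, and 24 to 28 of them reached the FPKM minimum. In CaggCreERT2 kidneys, 14 of the genes rose and 4 fell in Tsc2 KO relative to control, of 28 that reached the minimum. Of all genes that reached it, 23.0% rose and 15.5% fell. The median log2 fold change was 0.27 over the 31 genes, whether or not they reached the minimum, and 0.06 over all genes that reached it. Later medians of fold changes were taken in the same way. Of the 14 that rose, 4 were mevalonate genes, 7 were squalene and sterol genes, 2 belonged to the SREBP machinery and 1 to the fatty acid arm. Those that fell were the sterol genes Cyp51 and Ebp and the fatty acid genes Scd1 and Me1. The controls were male and 2 of the 3 Tsc2 KO kidneys female, and with Xist as a covariate 8 genes rose and 4 fell. The calls of Pmvk, Mvd, Idi1, Nsdhl, Sc5d, Scd2 and Cyp51 were then lost, and Elovl6 was called lower.

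In KspCre kidneys 9 genes rose and 0 fell in Tsc2 KO relative to control, of 28 that reached the minimum, while 9.42% of all genes rose and 8.74% fell. The median was 0.36 over the 31 genes and -0.01 over all genes. The squalene and sterol arm held 6 of the 9. In the drug cohort 6 genes rose and 6 fell between control and Tsc2 KO kidneys given vehicle, of 28, beside 23.8% of all genes that rose and 24.6% that fell, with medians of 0.09 and 0.00. Fdft1, Sqle, Msmo1, Hsd17b7, Insig1 and Scd2 rose in all 3 cohorts, 6 of the 27 members that reached the minimum in each, against 7.09% of all such genes. Acat2, Cyp51, Ebp, Elovl6, Scd1 and Me1 fell in the drug cohort.

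Leaving out 1 library at a time ended 7 of the 18 CaggCreERT2 calls (Pmvk, Idi1, Scd2, Sc5d, Nsdhl, Cyp51 and Mvd, the last at adjusted p of up to 0.192 without control 3). It ended 5 of the 9 KspCre calls (Scd2, Nsdhl, Fdft1, Hsd17b7 and Mvk, at up to 0.103) and 1 of the 12 drug cohort calls (Hsd17b7, without any of 14 of the 18 libraries, at up to 0.183 without vehicle control 1). Each of the 6 libraries of the compared groups ended at least 1 of the CaggCreERT2 and of the KspCre calls. With the adipocyte marker level as a covariate, a setting chosen after seeing the data, 3 genes were called in KspCre Tsc2 KO kidneys instead of 9 (Sqle, Msmo1 and Insig1). The other 6 kept their sign, with log2 fold changes of 0.55 for Nsdhl, 0.59 for Mvk, 0.85 for Sc5d, 0.90 for Scd2, 1.01 for Fdft1 and 1.04 for Hsd17b7, against 0.88, 0.70, 1.18, 1.30, 0.90 and 1.06 without it. The same covariate ended the CaggCreERT2 calls of Cyp51 (adjusted p = 0.064), Mvd (0.0954) and Pmvk (0.0578) and the drug cohort call of Hsd17b7 (0.057).

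The second question was what the additional loss of Tfeb did. In CaggCreERT2 kidneys 7 genes rose and 1 fell in DKO relative to Tsc2 KO, of 28 that reached the minimum, against 6.91% and 7.56% of all genes. The genes that rose were Acat2, Mvd, Cyp51, Ebp, Sc5d, Scd1 and Me1, and Pmvk fell. With the adipocyte covariate, 4 of the 8 calls were lost, those of Cyp51 at 1.04 (adjusted p = 0.0547), Sc5d at 0.52 (adjusted p = 0.0634), Mvd at 0.34 (adjusted p = 0.125) and Pmvk at -0.39 (adjusted p = 0.171). In the drug cohort 6 genes rose and 0 fell in DKO relative to Tsc2 KO kidneys given vehicle, of 28, against 16.9% and 12.6%. These were Acat2, Cyp51, Ebp, Sc5d, Scd1 and Me1, and the same 6 rose in the CaggCreERT2 comparison, of 27 members that reached the minimum in both, against 5.1% of all such genes. In the KspCre cohort 0 of 28 were called in edgeR's quasi-likelihood test (0.286% of all genes), 5 of the 31 had an unadjusted p under 0.05, and DESeq2 called 1. Tfeb itself did not pass edgeR's test in that comparison, at -0.48 (SE 0.20, adjusted p = 0.36). Leaving out 1 library ended the CaggCreERT2 calls of Mvd (adjusted p up to 0.121), Pmvk (0.119), Scd1 (0.0522 without Tsc2 KO 1) and Cyp51 (0.0573 without DKO 3). On vehicle it ended the calls of Scd1 (0.054 without Tsc2 KO vehicle 2) and Acat2 (up to 0.0741 without the same library, also without DKO vehicle 1 or 3).

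Relative to controls, DKO kidneys had 9 genes that rose and 0 that fell in the CaggCreERT2 cohort, of 27, against 10.2% and 4.73% of all genes. The KspCre cohort had 2 and 0 of 28, against 2.33% and 1.56%, and the drug cohort 5 and 0 of 28 in vehicle-treated kidneys, against 5.37% and 3.05%. The medians over the 31 genes were 0.52, 0.24 and 0.29, and those over all genes 0.02, -0.04 and 0.01. The 9 CaggCreERT2 genes were Acat2, Mvd, Sqle, Msmo1, Nsdhl, Hsd17b7, Sc5d, Dhcr7 and Insig1. Msmo1 and Scd2 rose in the KspCre cohort, and Sqle, Msmo1, Sc5d, Insig1 and Scd2 on vehicle. In each cohort these comparisons use the same control libraries as those of Tsc2 KO. Without KspCre DKO 1, the library high in macrophage and T cell markers, 3 genes were called in KspCre DKO relative to control and 0 relative to Tsc2 KO. Leaving out 1 library ended the CaggCreERT2 calls of Dhcr7 (adjusted p up to 0.115) and Msmo1 (0.0546 without DKO 1). It also ended both KspCre calls (Msmo1 up to 0.0758 without control 1 or 2, and Scd2 up to 0.134 without control 1 or 2 or DKO 2 or 3). On vehicle it ended the calls of Sqle (up to 0.159 without vehicle control 2) and Sc5d (up to 0.0781 without DKO vehicle 3). The Sqle call was lost without any of 14 of the 18 libraries, and with the adipocyte covariate (adjusted p = 0.0592).

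With Tfeb KO alone, 0 of 24 genes were called in CaggCreERT2 kidneys (0.0256% of all genes) and 0 of 25 in KspCre kidneys (0% of all genes). Of the 31 genes, 0 and 2 had an unadjusted p under 0.05 in edgeR's test, and DESeq2 called 0 in both. The targeted gene Tfeb gave -0.80 (SE 0.23, adjusted p = 0.394) and -0.33 (SE 0.20, adjusted p = 0.627) in edgeR's test, which did not pass. Tests that did not detect the knockout itself cannot show that Tfeb loss left these genes unchanged. The difference between the Tfeb effect with and without Tsc2 was called for 2 of 28 genes in CaggCreERT2 kidneys (Acat2 and Me1), against 2.13% of all genes, with both calls lost with Xist as a covariate or with the names of the count table, and for 0 of 28 in KspCre kidneys, against 0% of all genes. There 2 of the 31 had an unadjusted p under 0.05, and DESeq2 called 0.

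The third question was the effect of rapamycin. In Tsc2 KO kidneys 4 genes rose and 8 fell relative to vehicle, of 27, against 21.2% and 17.3% of all genes. In DKO kidneys 0 rose and 7 fell, of 28, against 2.73% and 4.70%. In control kidneys 0 of 27 were called in edgeR's quasi-likelihood test (0.0664% of all genes), 8 of the 31 had an unadjusted p under 0.05, and DESeq2 called 0. The medians over the 31 genes were -0.24 in Tsc2 KO, -0.34 in DKO and -0.16 in control kidneys, and 0.01, -0.02 and 0.00 over all genes. Dhcr7, Insig1, Msmo1, Scd2 and Sqle fell in both Tsc2 KO and DKO kidneys, 5 of the 27 members that reached the minimum in both, against 3.25% of all such genes. Relative to DKO kidneys on vehicle, Tsc2 KO kidneys on rapamycin had 0 higher and 4 lower genes of 28, against 0.660% and 1.09%. The rapamycin effect differed between Tsc2 KO and control for 7 of 28 genes, against 29.8% of all genes, and between DKO and Tsc2 KO for 2 of 28, against 11.0%. Leaving out 1 library ended 6 of the 12 calls of rapamycin in Tsc2 KO (Dhcr7, Ebp, Hmgcs1, Srebf1, Fdft1 and Me1). It ended 4 of the 7 in DKO (Dhcr7, Sqle, Hsd17b7 and Scd2) and 2 of the 4 in Tsc2 KO on rapamycin against DKO on vehicle (Sc5d at up to 0.117 and Msmo1 at up to 0.105). The libraries and values are given with the genes. The adipocyte covariate ended the calls of Hmgcs1, Srebf1, Ebp and Dhcr7 in Tsc2 KO (adjusted p of 0.0501 to 0.0744), of Dhcr7 and Hsd17b7 in DKO (0.0713 and 0.0637), and of Sc5d and Msmo1 in Tsc2 KO on rapamycin against DKO on vehicle (0.24 and 0.0876). Fitted to the compared groups alone, 7 genes were called for rapamycin in Tsc2 KO and 0 for Tsc2 KO on rapamycin against DKO on vehicle.

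**Figure D1:**
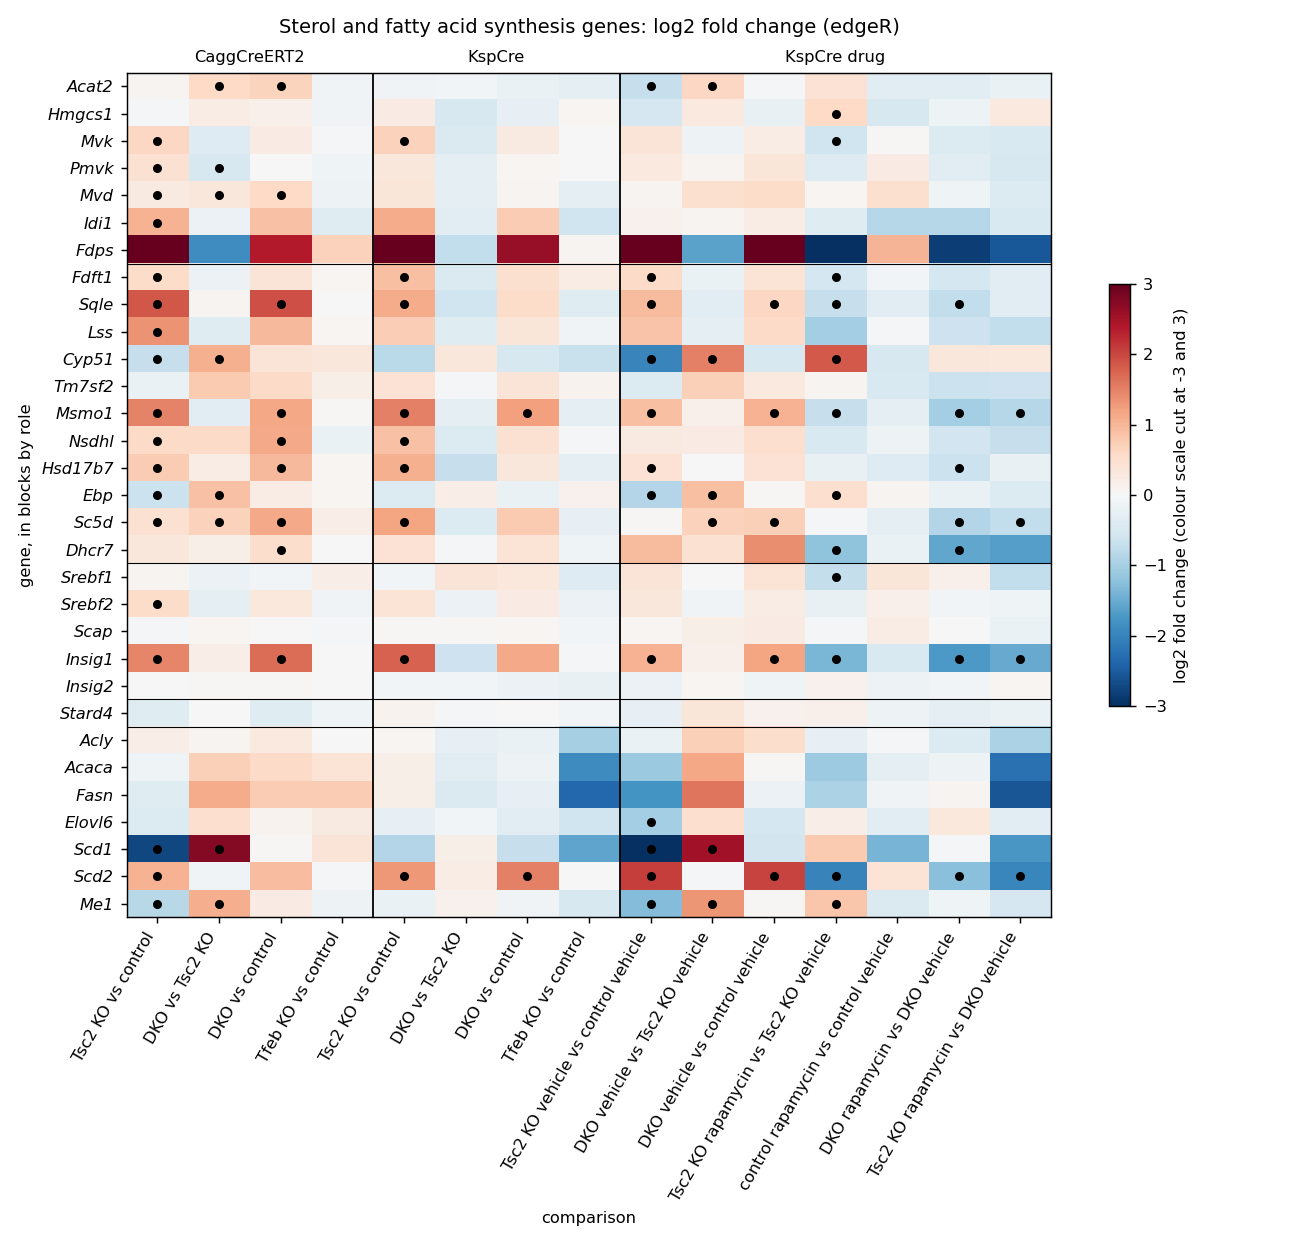
Log2 fold changes of the 31 genes (rows, in blocks by role) in the 15 comparisons of 2 groups (columns, by cohort), with red for higher and blue for lower in the first-named group and dots for called genes. Insig1, Sqle and Msmo1 are red in every column of Tsc2 KO against control and blue under rapamycin in Tsc2 KO and DKO, whereas Cyp51, Ebp, Scd1 and Me1 are blue in the CaggCreERT2 and drug cohort columns of Tsc2 KO and red in DKO relative to Tsc2 KO. Fdps has deep colours without dots because it stayed below the minimum of 5 FPKM.

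Within the SREBP machinery the gene called most often was Insig1 (ENSMUSG00000045294, chromosome 5, 28071363 to 28078662), which encodes the protein that retains SCAP and is itself an SREBP target. Insig1 measured 14.2, 20.1 and 11.8 FPKM in the CaggCreERT2 controls, 48.8, 44.9 and 27.1 in Tsc2 KO, 11.4, 13.6 and 20.5 in Tfeb KO and 55.6, 41.5 and 45.3 in DKO kidneys. KspCre kidneys gave Insig1 values of 23.4, 11.4 and 15.4 FPKM in controls, 56, 48.7 and 65.1 in Tsc2 KO, 11.8, 20.7 and 15.1 in Tfeb KO and 24.4, 40.6 and 44.3 in DKO. Drug-cohort Insig1 stood at 20.8, 19.9 and 15.9 FPKM in control, 45.5, 30.2 and 40.4 in Tsc2 KO and 49, 29.3 and 50.1 in DKO kidneys given vehicle, and at 14.4, 12.1 and 14.4 in control, 14.1, 15.5 and 15.1 in Tsc2 KO and 14.4, 12.2 and 12.2 in DKO kidneys given rapamycin. All Tsc2 KO kidneys without rapamycin lay above all controls of their cohort, and so did all DKO kidneys without rapamycin. All rapamycin-treated kidneys, at 12.1 to 15.5 FPKM, lay below all vehicle-treated kidneys. The log2 fold change in Tsc2 KO relative to control was 1.46 (SE 0.27, adjusted p = 0.00182) in the CaggCreERT2, 1.76 (SE 0.30, adjusted p = 0.00281) in the KspCre and 1.04 (SE 0.19, adjusted p = 0.000396) in the drug cohort. DKO relative to control kidneys gave 1.67 (SE 0.27, adjusted p = 0.00233), 1.13 (SE 0.29, adjusted p = 0.063) and 1.19 (SE 0.19, adjusted p = 0.00203), of which the KspCre value was not called. Rapamycin changed Insig1, with a log2 fold change of -1.38 (SE 0.19, adjusted p = 6.15e-05) in Tsc2 KO and -1.73 (SE 0.19, adjusted p = 0.00016) in DKO, and gave -0.46 (SE 0.19, adjusted p = 0.4) in control kidneys, which did not pass. The effect in Tsc2 KO differed from that in control by -0.91 (SE 0.26, adjusted p = 0.0231), a call lost without vehicle control 3, control rapamycin 1 or Tsc2 KO vehicle 1 (adjusted p up to 0.064). Tsc2 KO kidneys on rapamycin were lower than DKO on vehicle, with a log2 fold change of -1.52 (SE 0.19, adjusted p = 0.00158).

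Srebf2 (ENSMUSG00000022463, chromosome 15, 82147181 to 82205379), the precursor of SREBP2, changed less. Srebf2 stood at 22.1, 23.4 and 19.7 FPKM in the CaggCreERT2 controls, 34.3, 30.8 and 27 in Tsc2 KO, 19.1, 19.6 and 20.8 in Tfeb KO and 28.3, 24.2 and 26.1 in DKO kidneys. KspCre levels of Srebf2 were 17.4, 17.8 and 23.3 FPKM in controls, 25.8, 24 and 28.9 in Tsc2 KO, 18.3, 15.3 and 17.9 in Tfeb KO and 23, 22 and 24.2 in DKO. Vehicle and rapamycin values of Srebf2 stood at 19.3, 16.9 and 22.3 FPKM in control, 22.4, 24.9 and 26.2 in Tsc2 KO and 23.8, 20.4 and 24.4 in DKO kidneys given vehicle, and at 24.1, 20.8 and 20.2 in control, 24.2, 18.5 and 20.2 in Tsc2 KO and 19.4, 23.6 and 21.9 in DKO kidneys given rapamycin. The Tsc2 KO kidneys lay above the controls without overlap in the CaggCreERT2 and KspCre cohorts and on vehicle. Only the CaggCreERT2 difference was called, at 0.56 (SE 0.11, adjusted p = 0.00299), against 0.42 (SE 0.14, adjusted p = 0.0633) in the KspCre and 0.33 (SE 0.13, adjusted p = 0.0575) in the drug cohort.

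Srebf1 (ENSMUSG00000020538, chromosome 11, 60199089 to 60222581), the precursor of SREBP1, did not differ detectably between Tsc2 KO and control kidneys. Srebf1 ranged over 17.1, 21.8 and 11.6 FPKM in the CaggCreERT2 controls, 21.8, 16.7 and 12.8 in Tsc2 KO, 14, 16.9 and 25.4 in Tfeb KO and 16.2, 12.2 and 18.1 in DKO kidneys. Srebf1 in KspCre kidneys was 14.6, 14 and 21.4 FPKM in controls, 13.3, 18.7 and 15.5 in Tsc2 KO, 9.31, 12.8 and 16 in Tfeb KO and 22.2, 22 and 17.5 in DKO. Drug-cohort kidneys had Srebf1 at 13.1, 13.9 and 10.8 FPKM in control, 21.3, 12.8 and 15.3 in Tsc2 KO and 12.3, 19.5 and 18.2 in DKO kidneys given vehicle, and at 19.9, 12.4 and 16.3 in control, 11.5, 7.34 and 11.3 in Tsc2 KO and 22.6, 15 and 18.1 in DKO kidneys given rapamycin. Its groups overlapped in all 3 cohorts, with log2 fold changes of 0.09 (SE 0.27, adjusted p = 0.838), -0.08 (SE 0.22, adjusted p = 0.866) and 0.38 (SE 0.24, adjusted p = 0.218). Rapamycin lowered it in Tsc2 KO kidneys, with a log2 fold change of -0.71 (SE 0.24, adjusted p = 0.035) without overlap, a call lost without Tsc2 KO vehicle 1 (adjusted p = 0.176), Tsc2 KO vehicle 3 or Tsc2 KO rapamycin 2. In controls the value was 0.36 (SE 0.24, adjusted p = 0.55). The 2 effects differed by -1.07 (SE 0.34, adjusted p = 0.0337), a call lost without any of 5 libraries (vehicle control 3, control rapamycin 1 or 3, Tsc2 KO vehicle 1 or Tsc2 KO rapamycin 2), at adjusted p of up to 0.0946.

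Scap (ENSMUSG00000032485, chromosome 9, 110333288 to 110384950), the escort of the SREBPs, and Insig2 (ENSMUSG00000003721, chromosome 1, 121304353 to 121332589), another retention protein, were called in 0 of the 19 comparisons. Scap lay at 12.4, 12.4 and 12.1 FPKM in the CaggCreERT2 controls, 11, 10.8 and 12.4 in Tsc2 KO, 12.1, 11.7 and 11.2 in Tfeb KO and 12.1, 11 and 13.3 in DKO kidneys. KspCre libraries had Scap at 13.1, 10.1 and 11.4 FPKM in controls, 10.7, 12.1 and 12.8 in Tsc2 KO, 9.97, 11.4 and 11.1 in Tfeb KO and 11.9, 11.9 and 12.5 in DKO. Scap under vehicle stood at 13.1, 10.8 and 12.8 FPKM in control, 14, 11.8 and 12.7 in Tsc2 KO and 13.9, 15.7 and 13.8 in DKO kidneys given vehicle, and at 14.1, 13.9 and 14.6 in control, 13.3, 11.7 and 12.4 in Tsc2 KO and 14.6, 14.9 and 13.2 in DKO kidneys given rapamycin. These values spanned 9.97 to 15.7 FPKM over all 42 libraries. Insig2 came to 14.8, 15.8 and 12.5 FPKM in the CaggCreERT2 controls, 14.9, 12.8 and 13.5 in Tsc2 KO, 13.9, 14.7 and 13.6 in Tfeb KO and 15.3, 13.8 and 13.9 in DKO kidneys. KspCre samples showed Insig2 at 15.4, 13.7 and 13.3 FPKM in controls, 12.4, 13.2 and 14.6 in Tsc2 KO, 10.6, 12.5 and 13.2 in Tfeb KO and 12.3, 13 and 12.5 in DKO. Insig2 under vehicle stood at 16.6, 17 and 16.7 FPKM in control, 14.3, 16 and 14.2 in Tsc2 KO and 16.1, 14.8 and 15.1 in DKO kidneys given vehicle, and at 13.3, 14.8 and 16.9 in control, 14.7, 18.2 and 15.3 in Tsc2 KO and 14.9, 14.6 and 13.9 in DKO kidneys given rapamycin. Insig2 spanned 10.6 to 18.2 FPKM. The log2 fold changes in Tsc2 KO relative to control were -0.05 (SE 0.09, adjusted p = 0.73), 0.04 (SE 0.12, adjusted p = 0.867) and 0.07 (SE 0.10, adjusted p = 0.611) for Scap in the CaggCreERT2, KspCre and drug cohorts. Those of Insig2 were 0.00 (SE 0.10, adjusted p = 0.992), -0.09 (SE 0.11, adjusted p = 0.666) and -0.18 (SE 0.10, adjusted p = 0.186). Of the exonic bases of Scap, 13.2% are shared with the annotated transcript 5830462I19Rik.

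**Figure D2:**
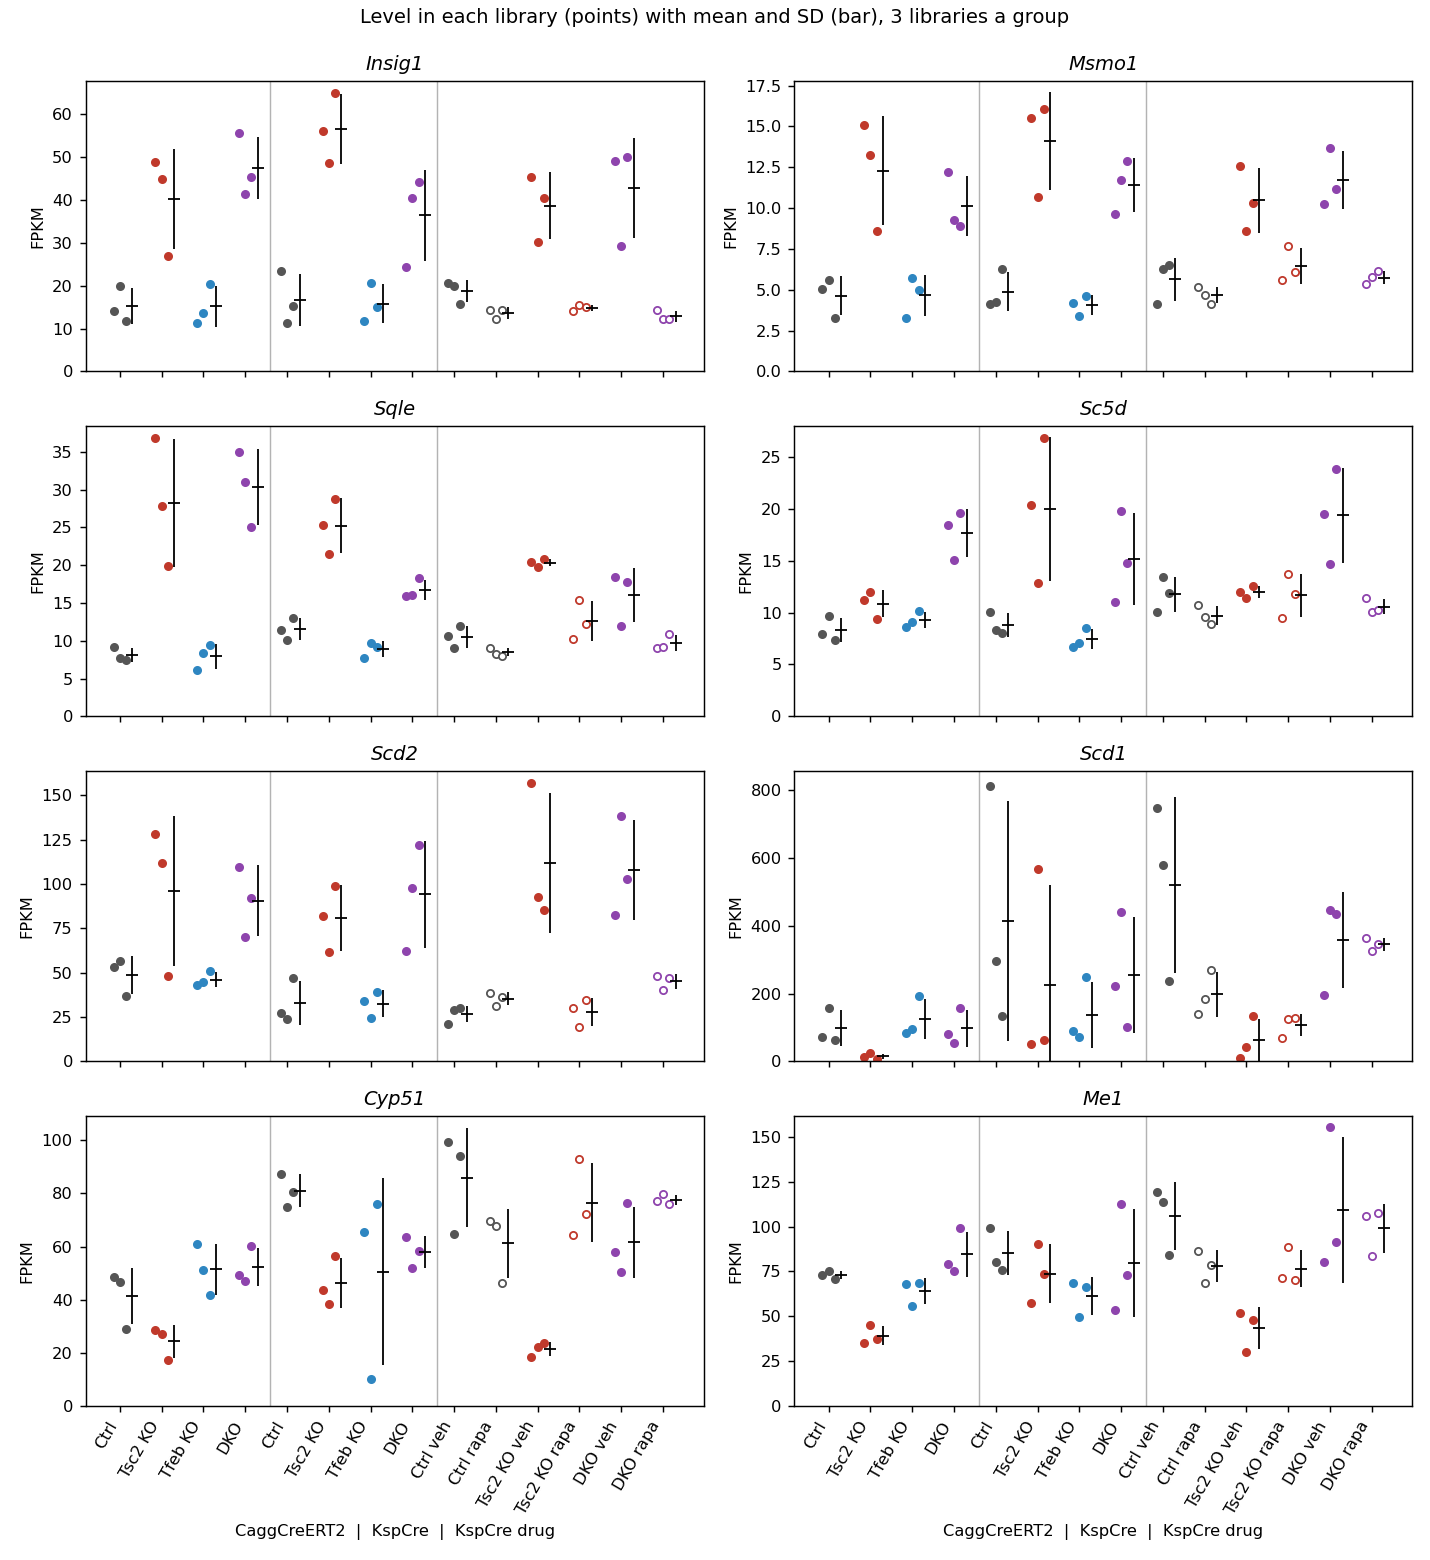
FPKM of 8 genes in each of the 42 libraries (points, open where rapamycin was given), with the mean and SD of the 3 libraries of each group (bar, cut at 0), in the CaggCreERT2, KspCre and drug cohorts from left to right. Insig1 in rapamycin-treated kidneys lies at 12.1 to 15.5 FPKM, below every vehicle-treated kidney, and Cyp51 lies at 18.5 to 23.7 FPKM in Tsc2 KO kidneys on vehicle, below every other kidney of the drug cohort.

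In the pathway from squalene to cholesterol, 7 of the 11 genes rose and 2 fell in Tsc2 KO relative to control kidneys of the CaggCreERT2 cohort, 6 rose and 0 fell in the KspCre cohort, and 4 rose and 2 fell on vehicle, beside 23.0%, 9.42% and 23.8% of all genes that rose. Sqle (ENSMUSG00000022351, chromosome 15, 59315077 to 59331192), squalene epoxidase, an oxygen-dependent and rate-limiting step, had the lowest adjusted p of the 31 genes in both untreated cohorts. Sqle measured 9.19, 7.75 and 7.46 FPKM in the CaggCreERT2 controls, 36.9, 27.9 and 19.9 in Tsc2 KO, 6.08, 8.33 and 9.39 in Tfeb KO and 35, 31 and 25 in DKO kidneys. KspCre kidneys gave Sqle values of 11.4, 10.2 and 13.1 FPKM in controls, 25.3, 21.5 and 28.8 in Tsc2 KO, 7.78, 9.73 and 9.24 in Tfeb KO and 15.9, 16 and 18.3 in DKO. Drug-cohort Sqle stood at 10.7, 9.0 and 11.9 FPKM in control, 20.4, 19.8 and 20.8 in Tsc2 KO and 18.5, 11.9 and 17.7 in DKO kidneys given vehicle, and at 9.08, 8.31 and 8.03 in control, 10.2, 15.4 and 12.2 in Tsc2 KO and 9.01, 9.21 and 10.9 in DKO kidneys given rapamycin. Every Tsc2 KO kidney without rapamycin lay above every control of its cohort, and the DKO kidneys did so in the untreated cohorts, while DKO vehicle 2 equalled the highest vehicle control. Its log2 fold change in Tsc2 KO was 1.86 (SE 0.23, adjusted p = 0.000103), 1.12 (SE 0.14, adjusted p = 0.000601) and 0.95 (SE 0.17, adjusted p = 0.000347) in the CaggCreERT2, KspCre and drug cohorts. DKO relative to control kidneys gave 1.94 (SE 0.23, adjusted p = 0.000218), 0.54 (SE 0.14, adjusted p = 0.0663) and 0.61 (SE 0.17, adjusted p = 0.0428), called in the first and last. Rapamycin lowered Sqle in Tsc2 KO kidneys, with a log2 fold change of -0.69 (SE 0.17, adjusted p = 0.00575) and in DKO, with a log2 fold change of -0.73 (SE 0.17, adjusted p = 0.0205), the latter lost without DKO vehicle 1 or 3 or DKO rapamycin 1 or 2 (adjusted p up to 0.102).

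Msmo1 (ENSMUSG00000031604, chromosome 8, 64718139 to 64733792) encodes the methylsterol monooxygenase that starts the removal of the methyl groups beside the sterol hydroxyl. Msmo1 was at 5.04, 5.58 and 3.29 FPKM in the CaggCreERT2 controls, 15.1, 13.2 and 8.59 in Tsc2 KO, 3.28, 5.7 and 5.01 in Tfeb KO and 12.2, 9.3 and 8.88 in DKO kidneys. KspCre values of Msmo1 were 4.13, 4.26 and 6.28 FPKM in controls, 15.5, 10.7 and 16.1 in Tsc2 KO, 4.18, 3.41 and 4.62 in Tfeb KO and 9.63, 11.7 and 12.9 in DKO. Drug-cohort Msmo1 stood at 4.13, 6.3 and 6.5 FPKM in control, 12.6, 8.59 and 10.3 in Tsc2 KO and 10.3, 13.7 and 11.1 in DKO kidneys given vehicle, and at 5.16, 4.71 and 4.15 in control, 5.62, 7.68 and 6.06 in Tsc2 KO and 5.35, 5.77 and 6.14 in DKO kidneys given rapamycin. It was called in all 6 comparisons of Tsc2 KO or DKO kidneys with controls, with no overlap in any. The log2 fold changes were 1.48 (SE 0.26, adjusted p = 0.0012), 1.52 (SE 0.21, adjusted p = 0.000949) and 0.90 (SE 0.18, adjusted p = 0.000995) in Tsc2 KO and 1.17 (SE 0.26, adjusted p = 0.0119), 1.22 (SE 0.21, adjusted p = 0.0139) and 1.05 (SE 0.18, adjusted p = 0.00365) in DKO. Rapamycin lowered it, with a log2 fold change of -0.70 (SE 0.18, adjusted p = 0.00813) in Tsc2 KO and -1.02 (SE 0.18, adjusted p = 0.00435) in DKO kidneys. Tsc2 KO kidneys on rapamycin lay below DKO kidneys on vehicle, with a log2 fold change of -0.85 (SE 0.18, adjusted p = 0.0327), a call lost without Tsc2 KO rapamycin 1 or 3 or DKO vehicle 2 or 3.

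Hsd17b7 (ENSMUSG00000026675, chromosome 1, 169949535 to 169969241), the ketosteroid reductase of the same demethylation step, rose in Tsc2 KO kidneys of all cohorts. Hsd17b7 held 4.88, 5.07 and 4.43 FPKM in the CaggCreERT2 controls, 9.24, 8.46 and 5.54 in Tsc2 KO, 4.97, 5.21 and 4.52 in Tfeb KO and 10.5, 8.51 and 8.59 in DKO kidneys. KspCre tissue had Hsd17b7 at 6.49, 4.94 and 4.45 FPKM in controls, 10.8, 10.1 and 12.2 in Tsc2 KO, 3.1, 4.09 and 5.86 in Tfeb KO and 4.68, 8.48 and 7.13 in DKO. Hsd17b7 on vehicle stood at 5.73, 7.24 and 7.03 FPKM in control, 9.26, 8.26 and 9.46 in Tsc2 KO and 9.99, 7.15 and 9.92 in DKO kidneys given vehicle, and at 5.49, 5.48 and 4.39 in control, 6.28, 9.7 and 7.05 in Tsc2 KO and 6.23, 5.51 and 5.62 in DKO kidneys given rapamycin. The Tsc2 KO and control groups did not overlap in any cohort, and the log2 fold changes were 0.76 (SE 0.17, adjusted p = 0.00523), 1.06 (SE 0.25, adjusted p = 0.0172) and 0.43 (SE 0.17, adjusted p = 0.0498). In DKO relative to control it rose in the CaggCreERT2 cohort, by 0.98 (SE 0.17, adjusted p = 0.00309). Rapamycin lowered it in DKO, with a log2 fold change of -0.64 (SE 0.17, adjusted p = 0.0355), lost without any of DKO vehicle 1 or 3 and DKO rapamycin 1, 2 or 3 (adjusted p up to 0.143).

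Nsdhl (ENSMUSG00000031349, chromosome X, 72918557 to 72958514), the dehydrogenase of that step, rose in Tsc2 KO kidneys of both untreated cohorts. Nsdhl reached 21.7, 18.7 and 18.8 FPKM in the CaggCreERT2 controls, 28.6, 36.2 and 19 in Tsc2 KO, 17.6, 16 and 17.5 in Tfeb KO and 41.1, 39.9 and 46 in DKO kidneys. Nsdhl in KspCre kidneys stood at 16.2, 17.1 and 19.6 FPKM in controls, 36.1, 24.2 and 37.8 in Tsc2 KO, 19.2, 17.5 and 14.9 in Tfeb KO and 16.5, 27.8 and 28.8 in DKO. Nsdhl on vehicle stood at 19.4, 18.8 and 20.3 FPKM in control, 25.4, 17.8 and 26.9 in Tsc2 KO and 32.8, 20.1 and 30.3 in DKO kidneys given vehicle, and at 17.2, 17.1 and 18.5 in control, 20, 15.4 and 15.5 in Tsc2 KO and 17.4, 18.4 and 20 in DKO kidneys given rapamycin. All DKO kidneys of the CaggCreERT2 cohort, at 39.9 to 46.0 FPKM, exceeded all other kidneys of that cohort. Nsdhl was called in Tsc2 KO relative to control at 0.57 (SE 0.18, adjusted p = 0.0317) and 0.88 (SE 0.22, adjusted p = 0.0212) in the untreated cohorts, with overlap in the first, and in CaggCreERT2 DKO relative to control at 1.14 (SE 0.18, adjusted p = 0.00179). It was called in 0 comparisons of the drug cohort.

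Sc5d (ENSMUSG00000032018, chromosome 9, 42251595 to 42264256), the sterol desaturase near the end of the pathway, had its highest levels in the CaggCreERT2 and drug cohorts in DKO kidneys without rapamycin. Sc5d gave 7.9, 9.64 and 7.39 FPKM in the CaggCreERT2 controls, 11.2, 12 and 9.41 in Tsc2 KO, 8.61, 9.09 and 10.1 in Tfeb KO and 18.4, 15.1 and 19.6 in DKO kidneys. Sc5d in KspCre samples was 10.1, 8.36 and 7.99 FPKM in controls, 20.4, 12.9 and 26.8 in Tsc2 KO, 6.69, 7.12 and 8.53 in Tfeb KO and 11, 19.8 and 14.7 in DKO. Sc5d on vehicle stood at 10.1, 13.4 and 11.9 FPKM in control, 11.9, 11.4 and 12.6 in Tsc2 KO and 19.5, 14.7 and 23.9 in DKO kidneys given vehicle, and at 10.7, 9.56 and 8.87 in control, 9.5, 13.7 and 11.8 in Tsc2 KO and 11.4, 10 and 10.3 in DKO kidneys given rapamycin. In Tsc2 KO relative to control it rose by 0.45 (SE 0.14, adjusted p = 0.0265) with overlap in the CaggCreERT2 and by 1.18 (SE 0.26, adjusted p = 0.0113) without overlap in the KspCre cohort. The drug cohort gave 0.03 (SE 0.17, adjusted p = 0.919). DKO kidneys exceeded Tsc2 KO kidneys by 0.68 (SE 0.14, adjusted p = 0.00987) in the CaggCreERT2 cohort and by 0.69 (SE 0.17, adjusted p = 0.00673) on vehicle, without overlap. They exceeded controls by 1.13 (SE 0.14, adjusted p = 0.000279) and 0.72 (SE 0.17, adjusted p = 0.0183). Rapamycin lowered Sc5d in DKO kidneys, at -0.87 (SE 0.17, adjusted p = 0.0073) and gave -0.04 (SE 0.17, adjusted p = 0.892) in Tsc2 KO kidneys, and these effects differed by -0.83 (SE 0.23, adjusted p = 0.0419). The last call was lost without any of 14 of the 18 libraries (adjusted p up to 0.117 without DKO vehicle 3). It was also lost with the replicate number as a block (adjusted p = 0.0625) and with the adipocyte covariate (adjusted p = 0.0528). Tsc2 KO kidneys on rapamycin lay below DKO kidneys on vehicle, with a log2 fold change of -0.73 (SE 0.17, adjusted p = 0.0419), a call lost without any of 14 libraries as well.

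Lss (ENSMUSG00000033105, chromosome 10, 76531588 to 76557138), lanosterol synthase, which closes the sterol rings, reached 5 FPKM in the CaggCreERT2 Tsc2 KO group alone. Lss showed 2.35, 2.83 and 1.95 FPKM in the CaggCreERT2 controls, 7.16, 6.33 and 3.8 in Tsc2 KO, 2.11, 2.37 and 2.8 in Tfeb KO and 5.0, 4.23 and 4.4 in DKO kidneys. Lss in KspCre kidneys was 3.06, 2.04 and 2.34 FPKM in controls, 4.18, 3.53 and 4.64 in Tsc2 KO, 1.76, 2.46 and 2.63 in Tfeb KO and 2.6, 3.36 and 3.6 in DKO. Lss on vehicle stood at 2.42, 2.5 and 2.39 FPKM in control, 4.58, 3.76 and 4.92 in Tsc2 KO and 3.78, 3.14 and 4.01 in DKO kidneys given vehicle, and at 1.98, 2.77 and 2.28 in control, 2.04, 2.17 and 2.32 in Tsc2 KO and 2.75, 2.18 and 2.14 in DKO kidneys given rapamycin. Its Tsc2 KO kidneys lay above the controls in every cohort without rapamycin. The CaggCreERT2 difference was called, at 1.34 (SE 0.21, adjusted p = 0.000668). In the other cohorts the log2 fold change was 0.73 (SE 0.20, adjusted p = 0.0288) and 0.86 (SE 0.14, adjusted p = 0.000209). Rapamycin changed it, with a log2 fold change of -1.02 (SE 0.15, adjusted p = 8.26e-05) in Tsc2 KO and -0.63 (SE 0.14, adjusted p = 0.0199) in DKO kidneys, and all 4 values were past the adjusted p threshold in edgeR's test but not called, because the levels stayed below the FPKM minimum. Markers of other cells moved with the genes that rose. The sum of 8 macrophage markers was 91.1 to 122 FPKM in controls and 151 to 198 in Tsc2 KO kidneys of the CaggCreERT2 cohort, and 59.1 to 83.3 against 106 to 178 in the KspCre cohort. On vehicle it was 45.4 to 61.6 in controls and 112 to 194 in Tsc2 KO, and 53.0 to 94.2 in Tsc2 KO on rapamycin. The sum of 5 proliferation markers was 1.05 to 2.83 FPKM in KspCre controls and 11.9 to 16.4 in KspCre Tsc2 KO kidneys, 0.85 to 1.44 and 7.58 to 24.4 on vehicle, and 16.6 to 22.6 and 15.7 to 34.9, with overlap, in the CaggCreERT2 cohort. The 4 intercalated cell markers were Slc4a1, Slc26a4, Atp6v1g3 and Atp6v0d2, of which Atp6v0d2 is also a lysosomal gene. Their sum was 94.1 to 109 FPKM in controls and 173 to 303 in Tsc2 KO kidneys of the KspCre cohort, and 92.4 to 126 and 295 to 370 on vehicle. It overlapped in the CaggCreERT2 cohort, at 138 to 146 and 83.2 to 175. With rapamycin, the Tsc2 KO kidneys had 1.84 to 2.01 FPKM of the proliferation and 176 to 256 of the intercalated cell markers. In DKO kidneys the intercalated cell sum was 165 to 288 FPKM on vehicle and 99.3 to 112 on rapamycin, the macrophage sum 66.1 to 86.5 and 37.9 to 54.9, and the proliferation sum 2.86 to 3.36 and 0.934 to 2.53. These sums were lower on rapamycin without overlap, as were Insig1, Sqle, Msmo1 and Scd2 in both genotypes. Their part in the results on the sterol genes was not tested.

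Fdft1 (ENSMUSG00000021273, chromosome 14, 63145150 to 63179578), squalene synthase, which joins the isoprenoid units into squalene, shares exons with a lysosomal gene. Fdft1 read 11.4, 13.9 and 11.2 FPKM in the CaggCreERT2 controls, 18.7, 17.9 and 14.8 in Tsc2 KO, 12.8, 12.3 and 12.7 in Tfeb KO and 16.3, 14.2 and 15.8 in DKO kidneys. KspCre Fdft1 levels were 12.7, 8.85 and 8.36 FPKM in controls, 17.5, 20.2 and 18.1 in Tsc2 KO, 8.61, 17.2 and 9.13 in Tfeb KO and 14.2, 14.1 and 13.2 in DKO. Fdft1 on vehicle stood at 10.6, 10.9 and 10.6 FPKM in control, 18.5, 14.1 and 15.6 in Tsc2 KO and 14.8, 12 and 15.6 in DKO kidneys given vehicle, and at 9.56, 10.5 and 10.3 in control, 9.82, 11.8 and 12.1 in Tsc2 KO and 12.4, 9.02 and 8.17 in DKO kidneys given rapamycin. Tsc2 KO kidneys without rapamycin lay above controls without overlap, with log2 fold changes of 0.56 (SE 0.11, adjusted p = 0.00334), 0.90 (SE 0.24, adjusted p = 0.0276) and 0.58 (SE 0.15, adjusted p = 0.00593). Rapamycin lowered it in Tsc2 KO kidneys, with a log2 fold change of -0.52 (SE 0.15, adjusted p = 0.0166), a call lost without Tsc2 KO vehicle 1 or Tsc2 KO rapamycin 1 (adjusted p up to 0.0804). KspCre Tfeb KO 2, at 17.2 FPKM, stood apart from the other Tfeb KO kidneys of that cohort. Of the 4227 exonic bases of Fdft1, 774 (18.3%, none of them coding) overlap exons of the cathepsin B gene Ctsb, which lies on the opposite strand (chromosome 14, 63122462 to 63145923). The libraries were not directional, so strand cannot separate reads there. Ctsb rose with Tsc2 loss, from 157 to 167 FPKM in controls to 383 to 649 in CaggCreERT2 Tsc2 KO kidneys, and its part in the Fdft1 values was not tested.

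**Figure D3:**
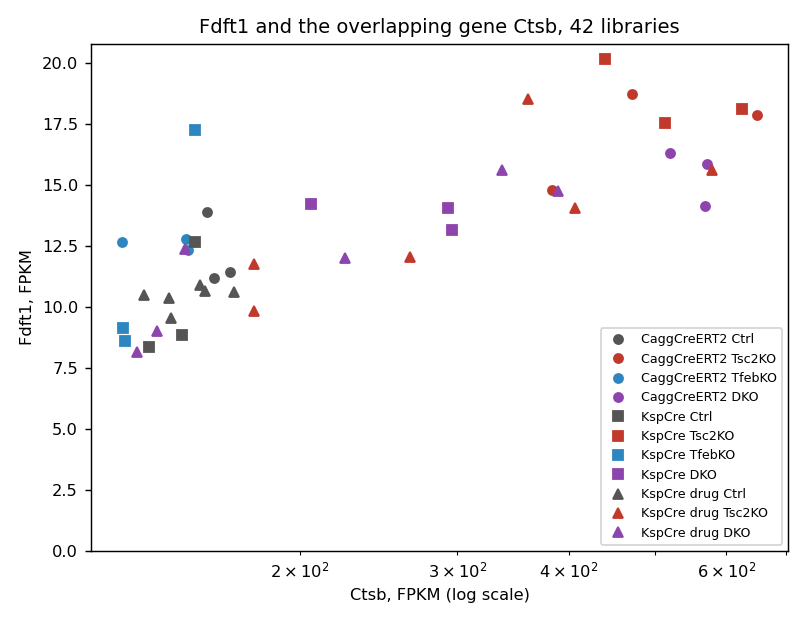
Fdft1 FPKM (vertical, linear) against FPKM of the overlapping gene Ctsb (horizontal, log scale) in each of the 42 libraries, coloured by genotype with 1 symbol per cohort. Tsc2 KO kidneys without rapamycin combine 14.1 to 20.2 FPKM of Fdft1 with 359.9 to 649 FPKM of Ctsb, and KspCre Tfeb KO 2 has Fdft1 at 17.2 FPKM with Ctsb in the control range.

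Dhcr7 (ENSMUSG00000058454, chromosome 7, 143823145 to 143848410), the reductase that completes cholesterol, was highest in the drug cohort in libraries with high adrenal cortex markers. Dhcr7 was 5.62, 5.47 and 4.35 FPKM in the CaggCreERT2 controls, 7.08, 6.49 and 5.06 in Tsc2 KO, 4.92, 4.86 and 5.28 in Tfeb KO and 7.43, 6.74 and 7.34 in DKO kidneys. Dhcr7 in KspCre kidneys was 2.99, 5.17 and 5.2 FPKM in controls, 6.13, 4.92 and 7.19 in Tsc2 KO, 4.47, 3.64 and 3.97 in Tfeb KO and 4.6, 6.38 and 6.68 in DKO. Dhcr7 on vehicle stood at 4.35, 4.4 and 5.25 FPKM in control, 16.8, 4.86 and 5.16 in Tsc2 KO and 7.43, 22.4 and 7.08 in DKO kidneys given vehicle, and at 4.24, 4.35 and 3.53 in control, 3.92, 3.91 and 3.79 in Tsc2 KO and 3.87, 3.97 and 4.53 in DKO kidneys given rapamycin. Tsc2 KO vehicle 1 and DKO vehicle 2, at 16.8 and 22.4 FPKM, stood above the other 16 kidneys of the drug cohort, which spanned 3.53 to 7.43. These are the libraries with the adrenal cortex sums of 1440 and 4360 FPKM, in which all 8 markers reached 1 FPKM. Dhcr7 was called in CaggCreERT2 DKO relative to control, at 0.52 (SE 0.14, adjusted p = 0.0293), where the adrenal sums of both groups lay between 1.2 and 1.58 FPKM. Rapamycin relative to vehicle gave -1.20 (SE 0.43, adjusted p = 0.0472) in Tsc2 KO and -1.57 (SE 0.44, adjusted p = 0.0454) in DKO kidneys. Without Tsc2 KO vehicle 1 the former was -0.37 (adjusted p = 0.482), and without DKO vehicle 2 the latter was -0.82 (adjusted p = 0.236). Leaving out any of 13 of the 18 libraries ended each call. With both libraries left out together, an alternative chosen after seeing the data, the values were -0.36 (adjusted p = 0.0454) and -0.81 (adjusted p = 0.00139), and both were called.

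Some members of the same pathway moved against the others. Cyp51 (ENSMUSG00000001467, chromosome 5, 4081145 to 4104746) encodes the lanosterol demethylase that acts right after ring closure. Cyp51 had 48.5, 46.6 and 29.1 FPKM in the CaggCreERT2 controls, 28.6, 27.3 and 17.2 in Tsc2 KO, 61.1, 51.3 and 41.8 in Tfeb KO and 49.3, 47.2 and 60.3 in DKO kidneys. Cyp51 in KspCre kidneys was 87.4, 75 and 80.6 FPKM in controls, 43.6, 38.2 and 56.5 in Tsc2 KO, 65.4, 10.3 and 76 in Tfeb KO and 63.6, 51.8 and 58.4 in DKO. Cyp51 on vehicle stood at 99.2, 64.6 and 94 FPKM in control, 18.5, 22.4 and 23.7 in Tsc2 KO and 58, 50.5 and 76.4 in DKO kidneys given vehicle, and at 69.7, 67.8 and 46.3 in control, 64.2, 93 and 72.4 in Tsc2 KO and 77, 79.6 and 76.2 in DKO kidneys given rapamycin. In the CaggCreERT2 cohort the Tsc2 KO kidneys lay below all controls and all DKO kidneys, and on vehicle they held 18.5 to 23.7 FPKM while all other kidneys of the drug cohort held 46.3 to 99.2. Tsc2 KO relative to control gave -0.70 (SE 0.22, adjusted p = 0.0339) in the CaggCreERT2 and -1.99 (SE 0.21, adjusted p = 2.37e-06) in the drug cohort. KspCre kidneys gave -0.82 (SE 0.50, adjusted p = 0.325), without overlap but not called, and their Tfeb KO 2 held 10.3 FPKM against 65.4 and 76.0 in the other Tfeb KO kidneys. DKO exceeded Tsc2 KO by 1.07 (SE 0.22, adjusted p = 0.0122) and 1.52 (SE 0.21, adjusted p = 9.18e-05), in the CaggCreERT2 and drug cohorts. Rapamycin raised Cyp51 in Tsc2 KO kidneys by 1.83 (SE 0.21, adjusted p = 9.97e-06), against -0.49 (SE 0.20, adjusted p = 0.405) in controls and 0.33 (SE 0.20, adjusted p = 0.365) in DKO. The effect in Tsc2 KO differed from that in control by 2.32 (SE 0.29, adjusted p = 6.72e-05), and that in DKO from that in Tsc2 KO by -1.50 (SE 0.29, adjusted p = 0.00542).

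Ebp (ENSMUSG00000031168, chromosome X, 8185329 to 8193512), the sterol isomerase, shared with Cyp51 the low level of the Tsc2 KO kidneys without rapamycin. By their means, its other groups stood in the same order as for Cyp51 in the CaggCreERT2 cohort and in another order in the KspCre and drug cohorts. Ebp spanned 37.7, 37.7 and 31.8 FPKM in the CaggCreERT2 controls, 19.2, 20.8 and 25.6 in Tsc2 KO, 43.2, 37.7 and 30 in Tfeb KO and 34.7, 38 and 49.6 in DKO kidneys. Ebp in KspCre kidneys was 43.9, 36.7 and 31.9 FPKM in controls, 28.1, 26.5 and 30.6 in Tsc2 KO, 45, 41.5 and 36.9 in Tfeb KO and 30.9, 32 and 35.1 in DKO. Ebp on vehicle stood at 42.4, 24.3 and 36.6 FPKM in control, 18.4, 17.5 and 20.2 in Tsc2 KO and 38.7, 30.4 and 36.8 in DKO kidneys given vehicle, and at 34.7, 36.9 and 38 in control, 30.7, 21.1 and 27.4 in Tsc2 KO and 31.5, 33.6 and 26.2 in DKO kidneys given rapamycin. Tsc2 KO kidneys without rapamycin lay below all controls of their cohort in every cohort. The log2 fold changes were -0.65 (SE 0.16, adjusted p = 0.00946), -0.40 (SE 0.13, adjusted p = 0.0631) and -0.88 (SE 0.18, adjusted p = 0.00105), of which the KspCre value was not called. DKO exceeded Tsc2 KO by 0.87 (SE 0.16, adjusted p = 0.00638) in the CaggCreERT2 cohort and 0.91 (SE 0.18, adjusted p = 0.00167) on vehicle. Rapamycin raised it in Tsc2 KO kidneys by 0.50 (SE 0.18, adjusted p = 0.0452), a call lost without any of 12 libraries (adjusted p up to 0.162 without Tsc2 KO rapamycin 1). In the CaggCreERT2 cohort the proximal tubule marker sum was lowest in Tsc2 KO kidneys, as were Cyp51, Ebp, Scd1 and Me1. It was 1820 to 2040 FPKM in controls, 430 to 928 in Tsc2 KO and 1200 to 1480 in DKO kidneys, without overlap. In the same order, podocyte markers summed to 139 to 154, 38.6 to 58.9 and 89.3 to 94.3 FPKM. Thick limb and distal convoluted tubule markers summed to 1320 to 1610, 784 to 924 and 1080 to 1200. Collecting duct principal cell markers summed to 466 to 606, 207 to 298 and 316 to 544. Intercalated cell and endothelial sums overlapped between controls and Tsc2 KO. In the drug cohort the proximal tubule sum moved with Cyp51, Ebp, Acat2 and Me1. It was 1600 to 1890 FPKM in controls on vehicle, 386 to 619 FPKM in Tsc2 KO kidneys on vehicle, 955 to 1730 in DKO on vehicle and 1460 to 1910 in Tsc2 KO on rapamycin. The podocyte sum was 86.4 to 113, 20.0 to 25.9, 57.4 to 69.2 and 32.6 to 91.4 FPKM in these groups. The thick limb and distal convoluted tubule sum overlapped between controls and Tsc2 KO on vehicle. The part of these cell types in the results was not tested. Tm7sf2, a sterol reductase, stayed between 1.95 and 4.83 FPKM in all libraries and could not be called.

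Genes of the mevalonate pathway differed from each other in which comparisons they were called. Acat2 (ENSMUSG00000023832, chromosome 17, 12942890 to 12960747), the cytosolic thiolase of the first step, was at its highest in CaggCreERT2 DKO kidneys. Acat2 held 39.3, 38.7 and 31 FPKM in the CaggCreERT2 controls, 37.2, 37.5 and 36 in Tsc2 KO, 35, 30.3 and 33.6 in Tfeb KO and 52.9, 53.5 and 62.6 in DKO kidneys. Acat2 in KspCre kidneys was 42, 33.4 and 32 FPKM in controls, 32.4, 26.8 and 40.3 in Tsc2 KO, 31.5, 26.6 and 31.2 in Tfeb KO and 24.7, 39.9 and 29.1 in DKO. Acat2 on vehicle stood at 33.9, 41.5 and 33.8 FPKM in control, 25.2, 18.6 and 23.7 in Tsc2 KO and 37.5, 26.6 and 39.8 in DKO kidneys given vehicle, and at 25.7, 31.7 and 29.1 in control, 26.4, 35.8 and 28.4 in Tsc2 KO and 29.1, 25.1 and 29.5 in DKO kidneys given rapamycin. The CaggCreERT2 DKO kidneys lay above all 9 others of the cohort. DKO exceeded Tsc2 KO by 0.59 (SE 0.11, adjusted p = 0.00655) and control by 0.67 (SE 0.11, adjusted p = 0.00204), and the Tfeb effect with Tsc2 lost exceeded that of Tfeb KO alone by 0.70 (SE 0.15, adjusted p = 0.0452). The last call was lost without any of 9 libraries (adjusted p up to 0.136 without control 1). It was also lost with Xist as a covariate (0.87, adjusted p = 0.243), with the names of the count table (0.27, adjusted p = 0.697) and with the adipocyte covariate (0.68, adjusted p = 0.0871). The replicate number as a block ended it too (0.70, adjusted p = 0.0875). In the drug cohort Tsc2 KO kidneys lay below controls, with a log2 fold change of -0.70 (SE 0.17, adjusted p = 0.00354), and DKO exceeded Tsc2 KO by 0.62 (SE 0.17, adjusted p = 0.0129). Rapamycin gave 0.43 (SE 0.17, adjusted p = 0.0622) in Tsc2 KO and -0.34 (SE 0.17, adjusted p = 0.454) in control kidneys, neither called. The difference of these effects was 0.76 (SE 0.23, adjusted p = 0.0295), a call lost without any of vehicle control 2, control rapamycin 1 or 3, Tsc2 KO vehicle 2 or Tsc2 KO rapamycin 2 (adjusted p up to 0.0833).

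Hmgcs1 (ENSMUSG00000093930, chromosome 13, 119690379 to 119708260), the synthase of the second step, was the most abundant gene of the mevalonate and sterol arms in the median library, at 76.7 FPKM. Hmgcs1 varied over 90, 84.1 and 72.6 FPKM in the CaggCreERT2 controls, 79.9, 67.8 and 79.2 in Tsc2 KO, 76.8, 76.6 and 72 in Tfeb KO and 97.7, 87.4 and 83.1 in DKO kidneys. Hmgcs1 in KspCre kidneys was 93.8, 73.7 and 72.8 FPKM in controls, 99.3, 81.4 and 106 in Tsc2 KO, 76, 94.7 and 78.5 in Tfeb KO and 61.1, 74.4 and 68 in DKO. Hmgcs1 on vehicle stood at 78.5, 93.2 and 83.6 FPKM in control, 53.3, 59.4 and 66.5 in Tsc2 KO and 78, 58.1 and 83.4 in DKO kidneys given vehicle, and at 60.3, 67.4 and 54.4 in control, 61, 122 and 85.2 in Tsc2 KO and 69.9, 65.8 and 61.6 in DKO kidneys given rapamycin. Tsc2 KO and control kidneys overlapped in the untreated cohorts, with log2 fold changes of -0.06 (SE 0.11, adjusted p = 0.736) and 0.25 (SE 0.15, adjusted p = 0.324). On vehicle the Tsc2 KO kidneys lay below the controls at -0.51 (SE 0.20, adjusted p = 0.0535), which did not pass. Rapamycin raised it by 0.59 (SE 0.20, adjusted p = 0.036) in Tsc2 KO kidneys, with overlap, and gave -0.49 (SE 0.20, adjusted p = 0.4) in control kidneys, and the difference of the effects was 1.07 (SE 0.28, adjusted p = 0.0136). The value in Tsc2 KO was not called without Tsc2 KO vehicle 1, Tsc2 KO vehicle 2, Tsc2 KO rapamycin 3 or Tsc2 KO rapamycin 2 (adjusted p = 0.248 for the last). Of its coding bases, 35.1% overlap the annotated gene Gm48342.

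Mvk (ENSMUSG00000041939, chromosome 5, 114444269 to 114460591), mevalonate kinase, rose in Tsc2 KO kidneys of the untreated cohorts. Mvk amounted to 6.54, 7.88 and 6.95 FPKM in the CaggCreERT2 controls, 11.2, 11.3 and 8.72 in Tsc2 KO, 6.88, 7.05 and 6.26 in Tfeb KO and 8.49, 8.31 and 7.71 in DKO kidneys. Mvk in KspCre kidneys was 6.37, 4.75 and 4.22 FPKM in controls, 8.72, 7.02 and 9.17 in Tsc2 KO, 3.89, 5.91 and 5.29 in Tfeb KO and 6.38, 5.82 and 6.29 in DKO. Mvk on vehicle stood at 6.42, 4.48 and 6.54 FPKM in control, 6.71, 7.48 and 8.58 in Tsc2 KO and 7.34, 6.88 and 6.32 in DKO kidneys given vehicle, and at 6.36, 5.9 and 5.64 in control, 5.35, 4.1 and 5.55 in Tsc2 KO and 5.46, 4.97 and 5.05 in DKO kidneys given rapamycin. Tsc2 KO and control kidneys did not overlap in any cohort. The log2 fold changes were 0.61 (SE 0.13, adjusted p = 0.00442), 0.70 (SE 0.19, adjusted p = 0.0313) and 0.39 (SE 0.16, adjusted p = 0.06), the last not called. Rapamycin lowered Mvk in Tsc2 KO kidneys, with a log2 fold change of -0.60 (SE 0.16, adjusted p = 0.00866).

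Mvd (ENSMUSG00000006517, chromosome 8, 122433601 to 122443422), mevalonate diphosphate decarboxylase, differed in the CaggCreERT2 cohort. Mvd was found at 32.1, 32.3 and 26.8 FPKM in the CaggCreERT2 controls, 35.2, 36.4 and 33.3 in Tsc2 KO, 27.8, 25.2 and 27.4 in Tfeb KO and 47.1, 44.8 and 42.9 in DKO kidneys. Mvd in KspCre kidneys was 27.6, 23.3 and 24.9 FPKM in controls, 32.7, 24.8 and 40.4 in Tsc2 KO, 22.9, 18.4 and 20 in Tfeb KO and 24.4, 25.5 and 30.9 in DKO. Mvd on vehicle stood at 22.9, 10.4 and 20.6 FPKM in control, 19.4, 15 and 22.9 in Tsc2 KO and 29.6, 19.8 and 29.9 in DKO kidneys given vehicle, and at 27.2, 24.2 and 23.1 in control, 25, 14.1 and 20.7 in Tsc2 KO and 22.6, 26.5 and 23.8 in DKO kidneys given rapamycin. The CaggCreERT2 groups stood in the order control, Tsc2 KO and DKO without overlap. Tsc2 KO differed from control by 0.27 (SE 0.09, adjusted p = 0.0477), DKO from Tsc2 KO by 0.34 (SE 0.09, adjusted p = 0.0384) and DKO from control by 0.60 (SE 0.09, adjusted p = 0.00154). The first of these calls was lost without any of 11 of the 12 libraries and the second without any of 8. The drug cohort controls, at 10.4 to 22.9 FPKM, overlapped all groups on vehicle. Of the other mevalonate genes, Pmvk, phosphomevalonate kinase, rose in CaggCreERT2 Tsc2 KO kidneys by 0.45 (SE 0.12, adjusted p = 0.0171) and was lower in DKO than in Tsc2 KO, with a log2 fold change of -0.47 (SE 0.12, adjusted p = 0.0347). Idi1, the isomerase that readies the isoprenoid units for joining, rose there by 1.04 (SE 0.29, adjusted p = 0.0185). Fdps, farnesyl diphosphate synthase, stayed between 0 and 2.63 FPKM. All its Tsc2 KO values without rapamycin lay above all controls, at 0.606 to 2.63 against 0 to 0.132 FPKM. The log2 fold changes were 4.26 (SE 0.52, adjusted p = 0.000107), 3.36 (SE 0.51, adjusted p = 0.00164) and 5.33 (SE 0.73, adjusted p = 3.31e-05). Of its coding bases, 85.9% overlap the annotated gene Gm43738 on the same strand. How shared reads were counted is not given in the sources used here, so the level of Fdps is uncertain.

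Stard4, a cytosolic sterol carrier, stayed between 13.1 and 26.5 FPKM and was called in 0 of the 19 comparisons. Its log2 fold change in Tsc2 KO relative to control was -0.37 (SE 0.16, adjusted p = 0.109), 0.10 (SE 0.16, adjusted p = 0.744) and -0.24 (SE 0.19, adjusted p = 0.338) in the CaggCreERT2, KspCre and drug cohorts.

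In the fatty acid arm the stearoyl-CoA desaturases, which place the double bond of oleate and palmitoleate, moved in opposite directions. Scd2 (ENSMUSG00000025203, chromosome 19, 44293676 to 44306864) rose in Tsc2 KO kidneys. Scd2 was measured at 53.1, 56.7 and 36.7 FPKM in the CaggCreERT2 controls, 128, 112 and 48 in Tsc2 KO, 42.8, 44.4 and 50.9 in Tfeb KO and 109.7, 69.9 and 91.9 in DKO kidneys. Scd2 in KspCre kidneys was 27.4, 23.9 and 46.9 FPKM in controls, 82.1, 61.5 and 98.7 in Tsc2 KO, 34.1, 24.5 and 38.9 in Tfeb KO and 62.3, 97.8 and 122 in DKO. Scd2 on vehicle stood at 21.1, 28.8 and 29.7 FPKM in control, 157, 92.6 and 85.4 in Tsc2 KO and 82.6, 138 and 103 in DKO kidneys given vehicle, and at 38.3, 31.3 and 36.3 in control, 29.9, 19 and 34.4 in Tsc2 KO and 48, 40.1 and 46.8 in DKO kidneys given rapamycin. The Tsc2 KO kidneys lay above the controls without overlap in the KspCre and drug cohorts, and the rapamycin-treated Tsc2 KO kidneys, at 19.0 to 34.4 FPKM, overlapped the controls of either treatment, at 21.1 to 38.3. The log2 fold change in Tsc2 KO was 1.04 (SE 0.30, adjusted p = 0.0214), with overlap, 1.30 (SE 0.31, adjusted p = 0.0175) and 2.07 (SE 0.26, adjusted p = 1.26e-05). DKO relative to control kidneys gave 0.93 (SE 0.30, adjusted p = 0.0712), 1.52 (SE 0.31, adjusted p = 0.0275) and 2.02 (SE 0.26, adjusted p = 0.000374), called in the last 2. Rapamycin lowered Scd2, with a log2 fold change of -2.00 (SE 0.26, adjusted p = 3.01e-05) in Tsc2 KO and of -1.26 (SE 0.25, adjusted p = 0.00907) in DKO (lost without DKO rapamycin 2, adjusted p = 0.0593), and gave 0.41 (SE 0.25, adjusted p = 0.521) in controls. The effect in Tsc2 KO differed from that in control by -2.42 (SE 0.35, adjusted p = 0.000263). Tsc2 KO on rapamycin lay below DKO on vehicle, with a log2 fold change of -1.95 (SE 0.26, adjusted p = 0.00167). The highest Scd2 values, 157 and 138 FPKM, were those of the 2 libraries with the highest adrenal cortex markers. Without them the log2 fold change was 1.73 (adjusted p = 2e-05) for Tsc2 KO against control on vehicle and -1.67 (adjusted p = 4.89e-05) for rapamycin in Tsc2 KO.

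Scd1 (ENSMUSG00000037071, chromosome 19, 44394451 to 44407709) fell in Tsc2 KO kidneys of the CaggCreERT2 and drug cohorts. Scd1 showed 71, 158 and 64 FPKM in the CaggCreERT2 controls, 13.8, 22.8 and 5.69 in Tsc2 KO, 84.2, 95.7 and 192 in Tfeb KO and 81.4, 52.8 and 158 in DKO kidneys. Scd1 in KspCre kidneys was 814, 295 and 135 FPKM in controls, 50.2, 567 and 61.8 in Tsc2 KO, 90.3, 71.7 and 250.1 in Tfeb KO and 222, 440.1 and 102 in DKO. Scd1 on vehicle stood at 748, 579.7 and 237 FPKM in control, 10.7, 41.5 and 134 in Tsc2 KO and 195, 448 and 435 in DKO kidneys given vehicle, and at 141, 183 and 269 in control, 69.6, 124 and 127 in Tsc2 KO and 363, 326 and 346 in DKO kidneys given rapamycin. In those cohorts Tsc2 KO kidneys without rapamycin lay below all controls and all DKO kidneys, while the KspCre groups overlapped widely. Tsc2 KO relative to control gave -2.73 (SE 0.57, adjusted p = 0.00352) in the CaggCreERT2, -0.87 (SE 0.95, adjusted p = 0.612) in the KspCre and -3.07 (SE 0.66, adjusted p = 0.00171) in the drug cohort, where it was -4.30 without Tsc2 KO vehicle 3. DKO exceeded Tsc2 KO by 2.76 (SE 0.57, adjusted p = 0.0112) and 2.53 (SE 0.65, adjusted p = 0.0104) in the CaggCreERT2 and drug cohorts, the latter 3.77 without the same library. Scd1 is also abundant in fat. In the CaggCreERT2 cohort it was 158 to 192 FPKM in the 3 kidneys with an adipocyte sum above 300 FPKM (a limit chosen after seeing the data) and 5.69 to 95.7 in the other 9. With the adipocyte level as a covariate, the difference of Tsc2 KO from control was -2.22 (adjusted p = 0.00189) and -3.0 (adjusted p = 0.000966) in these cohorts. In the KspCre cohort it turned from -0.87 to 0.33 (adjusted p = 0.817). The difference of DKO from Tsc2 KO was 1.94 (adjusted p = 0.0317) and 2.20 (adjusted p = 0.0156) with that covariate. The adipocyte sum was 45.7 to 167 FPKM in Tsc2 KO and 325 to 729 FPKM in DKO kidneys on vehicle, without overlap. The part of adipocyte RNA in the levels of Scd1 was not tested otherwise.

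Me1 (ENSMUSG00000032418, chromosome 9, 86581371 to 86695953), cytosolic malic enzyme, which supplies NADPH, was lowest in Tsc2 KO kidneys in the CaggCreERT2 cohort and on vehicle. Me1 measured 73.3, 75.2 and 70.7 FPKM in the CaggCreERT2 controls, 35.3, 45 and 37.6 in Tsc2 KO, 68.2, 55.8 and 68.6 in Tfeb KO and 79.1, 75.3 and 99.1 in DKO kidneys. Me1 in KspCre kidneys was 99, 80.3 and 76 FPKM in controls, 57.2, 90.1 and 73.7 in Tsc2 KO, 68.4, 49.4 and 66.5 in Tfeb KO and 53.7, 112 and 73 in DKO. Me1 on vehicle stood at 119, 114 and 84.1 FPKM in control, 51.9, 29.9 and 48 in Tsc2 KO and 80.3, 156 and 91.4 in DKO kidneys given vehicle, and at 86.4, 68.8 and 78.7 in control, 71.1, 88.6 and 70.2 in Tsc2 KO and 106, 83.5 and 108 in DKO kidneys given rapamycin. Tsc2 KO kidneys lay below all controls and all DKO kidneys in the CaggCreERT2 and drug cohorts without rapamycin. The log2 fold changes relative to control were -0.83 (SE 0.13, adjusted p = 0.000681) and -1.29 (SE 0.24, adjusted p = 0.000517), against -0.21 (SE 0.26, adjusted p = 0.653) in the KspCre cohort, which became 0.02 (adjusted p = 0.982) with the adipocyte covariate. DKO exceeded Tsc2 KO by 1.08 (SE 0.13, adjusted p = 0.000832) and 1.33 (SE 0.24, adjusted p = 0.000936). The Tfeb effect with Tsc2 lost exceeded that of Tfeb KO alone by 1.24 (SE 0.19, adjusted p = 0.00804) in CaggCreERT2 kidneys. It was not called with Xist as a covariate (1.36, adjusted p = 0.108) or with the names of the count table (1.11, adjusted p = 0.0617). The controls were male and the Tfeb KO kidneys female. Rapamycin raised Me1 in Tsc2 KO kidneys by 0.83 (SE 0.24, adjusted p = 0.0158), lost without Tsc2 KO vehicle 2 or Tsc2 KO rapamycin 2 (adjusted p up to 0.0841), and gave -0.44 (SE 0.24, adjusted p = 0.487) in controls. The difference of these effects was 1.27 (SE 0.34, adjusted p = 0.0145).

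The core enzymes of fatty acid synthesis varied widely and were never called. Acly, which makes cytosolic acetyl-CoA, spanned 18.8 to 135 FPKM over all libraries, Acaca, acetyl-CoA carboxylase, 1.23 to 17.1 and Fasn, fatty acid synthase, 7.14 to 208. They were called in 0 of the 19 comparisons. Fasn relative to control was -0.36 (SE 0.62, adjusted p = 0.704), 0.18 (SE 1.13, adjusted p = 0.94) and -1.79 (SE 1.11, adjusted p = 0.218) in Tsc2 KO kidneys of the CaggCreERT2, KspCre and drug cohorts. With the adipocyte level as a covariate the values were 0.58 (adjusted p = 0.448), 1.67 (adjusted p = 0.23) and -1.29 (adjusted p = 0.0807), none of them called. Fasn held 30.2 to 65.1 FPKM in the 3 CaggCreERT2 kidneys with an adipocyte sum above 300 FPKM and 8.64 to 25.4 in the other 9. In the KspCre cohort the 5 kidneys above that sum held 24.3 to 208 FPKM and the other 7 held 9.36 to 21.5. The 6 drug cohort kidneys above it held 24.7 to 142 FPKM and the other 12 held 7.14 to 188, the highest being control rapamycin 3 with an adipocyte sum of 270. Elovl6, which elongates palmitate, fell in Tsc2 KO kidneys on vehicle, with a log2 fold change of -1.03 (SE 0.26, adjusted p = 0.00495) without overlap, and gave -1.01 (adjusted p = 0.00346) with the adipocyte level as a covariate.

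**Figure D4:**
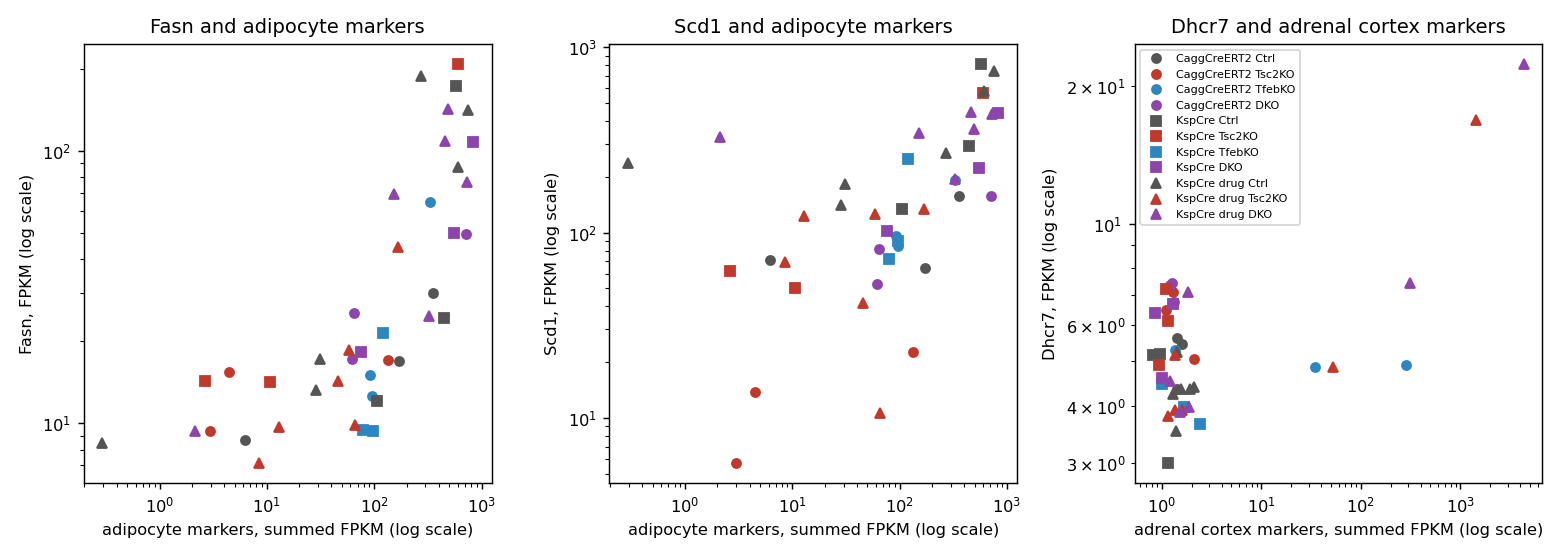
FPKM of Fasn (left) and Scd1 (middle) against the summed FPKM of 8 adipocyte markers, and of Dhcr7 (right) against that of 8 adrenal cortex markers, in each of the 42 libraries, all axes on log scales, coloured by genotype with 1 symbol per cohort. In the right panel Tsc2 KO vehicle 1 and DKO vehicle 2, at 16.8 and 22.4 FPKM of Dhcr7, stand apart with adrenal cortex sums of 1440 and 4360 FPKM.

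Other genes of lipid synthesis were counted by lists chosen with earlier results of these data known. Of 10 other genes of sterol synthesis and uptake, of which 9 were tested, 5 rose and 0 fell in CaggCreERT2 Tsc2 KO relative to control kidneys, 2 rose and 0 fell in the KspCre cohort, and 2 rose and 2 fell on vehicle. With rapamycin, 1 rose and 2 fell in Tsc2 KO and 2 fell in DKO kidneys. Of 19 other genes of fatty acid and triglyceride synthesis, 6 rose and 3 fell, 4 rose and 1 fell, and 3 rose and 4 fell in the same 3 comparisons of Tsc2 KO with control. Of 11 other regulators of SREBP, 0 rose and 2, 0 and 5 fell there, and 5 rose and 0 fell with rapamycin in Tsc2 KO kidneys. Of 9 LXR target and sterol efflux genes, which are known to be induced when sterol is plentiful, 2 rose and 1 fell, 1 rose and 1 fell, and 2 rose and 2 fell. The shares of all genes called in these comparisons are those given with the counts of the 31 genes.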

How the data were processed

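The members and the gene lists were chosen with earlier results of these data known. Whole-kidney poly-A RNA was sequenced in 42 libraries of 3 cohorts, and each cohort had a table of raw read counts per gene and a table of FPKM values, both deposited by the authors. The counts are whole numbers of reads per gene, which the authors deposited without normalization. The deposited FPKM values were scaled by the authors to gene length and to 1 size per library, which is not the sum of the deposited counts. Relative to the cohort median, the ratio of that size to the TMM effective library size was 0.969 to 1.04. The submitters' processing notes name STAR 2.6.1d, HISAT2 2.0.5, featureCounts 1.5.0-p3, DESeq2 1.20.0 and mm10 without giving their roles. For 4 CaggCreERT2 libraries the count table and the FPKM table disagree on the name. Count columns were joined to FPKM columns by their constant ratio per gene (coefficient of variation at most 1.42e-10, against 0.139 or more for the next column), and the FPKM names were kept.

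Counts were tested in R 4.3.3 with edgeR 4.0.16 (TMM scaling, filterByExpr, glmQLFit and glmQLFTest, 2-sided), with all groups of a cohort in 1 fit and Benjamini-Hochberg adjustment over all tested genes. A call needed a mean of at least 5 FPKM in at least 1 compared group and an adjusted p that did not exceed 0.05. SE is the size of the log2 fold change divided by the square root of F. The procedure was tested on simulated data. Values in every library are given for members called in at least 3 comparisons, members of the SREBP machinery, up to 4 called members with the lowest adjusted p in each comparison of Tsc2 KO with control, and members called for a difference between effects. Other called members are given by their fold change and the rest by range and count. Depth ran from 14926050 to 22807605 counted reads per library. Exon overlaps were computed from GENCODE vM21, in which 28 of the 31 genes have the same coordinates as in the tables. The alternatives were DESeq2 1.42.0, RLE scaling, no filter, no FPKM minimum, the compared groups alone, a replicate block, leaving out each library, in the CaggCreERT2 cohort the names of the count table or Xist level as a covariate, and, chosen after seeing the data, adipocyte level as a covariate and leaving out the libraries highest in adrenal cortex markers.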

Additional observations from a re-analysis of the deposited data

Results flagged for a closer look

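In CaggCreERT2 kidneys the effect of Tfeb loss differed with the state of Tsc2 for Acat2, by 0.70 on the log2 scale, and for Me1, by 1.24, in a test of the difference of the effects in edgeR's quasi-likelihood fit. In the drug cohort the effect of rapamycin was higher in Tsc2 KO than in control kidneys for Acat2 by 0.76, for Hmgcs1 by 1.07, for Cyp51 by 2.32 and for Me1 by 1.27. It was lower for Srebf1, with a difference of -1.07, for Insig1, with -0.91, and for Scd2, with -2.42. Between DKO and Tsc2 KO kidneys the rapamycin effect differed by -1.50 for Cyp51 and by -0.83 for Sc5d. These were 2 of 28 members for the Tfeb effect, against 2.13% of all genes. For rapamycin they were 7 of 28 between Tsc2 KO and control, against 29.8%, and 2 of 28 between DKO and Tsc2 KO, against 11.0%. The calls of Acat2 (both tests), Srebf1, Insig1 and Sc5d were lost when 1 library was left out. Both CaggCreERT2 calls, of Acat2 and Me1, were lost with Xist as a covariate and with the names of the count table. With the adipocyte covariate those of Acat2 in CaggCreERT2 kidneys and of Sc5d were lost, and without the libraries highest in adrenal cortex markers that of Srebf1. The replicate number as a block also ended those of Acat2 in CaggCreERT2 kidneys (adjusted p = 0.0875) and of Sc5d (adjusted p = 0.0625).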

How the results depend on the processing

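None of the 103 called values changed sign under any alternative. Of the 486 values that were not called, 174 changed sign under at least 1 alternative, and none of these was called with the other sign. With the adipocyte level as a covariate, for example, the difference of Tsc2 KO from control became 0.58 for Fasn in CaggCreERT2 kidneys and 0.33 for Scd1 and 0.02 for Me1 in KspCre kidneys. Over all 19 comparisons, 44 of the 103 calls of single genes were kept under every alternative, and 42 were lost when 1 library was left out. Fewer libraries per group limit all of these tests, since each group had 3. With DESeq2, 4 genes were called for the Tfeb effect with and without Tsc2 in CaggCreERT2 kidneys, 1 in KspCre DKO relative to Tsc2 KO, 5 in KspCre DKO relative to control, 7 in Tsc2 KO on rapamycin relative to DKO on vehicle and 4 for the rapamycin effect in DKO relative to Tsc2 KO. With the adipocyte level as a covariate, chosen after seeing the data, the counts were 4 in CaggCreERT2 DKO relative to Tsc2 KO, 1 for the CaggCreERT2 Tfeb effects, 3 in KspCre Tsc2 KO relative to control, 2 in Tsc2 KO on rapamycin relative to DKO on vehicle and 1 for the rapamycin effect in DKO relative to Tsc2 KO. With the names of the count table they were 9 in CaggCreERT2 Tsc2 KO relative to control, 4 in DKO relative to Tsc2 KO, 0 in DKO relative to control and 0 for the Tfeb effects. The Tfeb effects gave 0 with Xist as a covariate and 5 with no filter on low counts. Fitted to the compared groups alone, 1 gene was called in KspCre DKO relative to control, 3 in DKO relative to control on vehicle, 7 for rapamycin in Tsc2 KO and 0 in Tsc2 KO on rapamycin relative to DKO on vehicle. Without the libraries highest in adrenal cortex markers, 4 were called for the rapamycin effect in DKO relative to Tsc2 KO. The causes were not tested.

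Leaving out 1 library at a time gave 12 to 18 calls in CaggCreERT2 Tsc2 KO relative to control, 5 to 8 in DKO relative to Tsc2 KO, 7 to 12 in DKO relative to control, 0 in Tfeb KO and 1 to 3 for the Tfeb effects. In the KspCre cohort it gave 4 to 12 for Tsc2 KO and 0 to 3 for DKO relative to control, and 0 for DKO relative to Tsc2 KO, Tfeb KO and the Tfeb effects. In the drug cohort it gave 11 to 15 for Tsc2 KO relative to control, 4 to 7 for DKO relative to Tsc2 KO, 3 to 6 for DKO relative to control, 7 to 14, 0 and 3 to 9 for rapamycin in Tsc2 KO, control and DKO, 2 to 5 for Tsc2 KO on rapamycin relative to DKO on vehicle, 4 to 9 for the rapamycin effect in Tsc2 KO relative to control and 1 to 3 for that in DKO relative to Tsc2 KO.

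The labels number the libraries of every group 1 to 3. Deviations of same-numbered libraries from their group means had median correlations of 0.00881, -0.04 and -0.00502 in the CaggCreERT2, KspCre and drug cohorts, with minima of -0.173, -0.293 and -0.361, and 2 of 12, 6 of 12 and 7 of 18 libraries correlated best with their own number, so the numbers were not taken as pairs. With the replicate number as a block, 1 gene was called for the CaggCreERT2 Tfeb effects and 1 for the rapamycin effect in DKO relative to Tsc2 KO, and every other count stayed within 1.5 times that without the block.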
